A study of Homo sapiens with 20 samples.

Results

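The SH3RF3 and LIMS1 locus is a stretch of human chromosome 2, chr2:109100000-110400000 in the hg19 build, that holds SH3RF3, LIMS1 and EDAR. Its members are the chromatin contacts with at least 1 anchor in that stretch, and there were 364 of them among the 572000 anchor pairs found in any of 4 cell lines. They used 124 different anchors. A contact was assigned to a gene when an anchor lay within 3 kb of one of the gene's annotated transcript starts. Hi-C ligates and sequences DNA ends that were spatial neighbours in the fixed nucleus, and it was performed on 4 cell lines cultured in the same medium with serum. H4 and 42MGBA are human glioblastoma multiforme (GBM) lines that carry a naturally occurring, inactivating mutation of STAG2, and are called STAG2-mutant. Their STAG2-corrected derivatives, H4 88-1 and 42MGBA 53-1, had the wild-type sequence restored by gene editing, and each is a single derivative line, so that the correction cannot be told apart from other differences between a parent and its derivative. The 2 Hi-C libraries of each cell line were pooled by the authors into 1 list of the 300000 strongest anchor pairs, each anchor about 5 kb long, with a loop strength and no read counts. The depth behind a single contact is therefore unknown, there is no replicate check of any difference, and an unlisted contact is one below the lowest strength in the list (4.14 in H4 and 4.44 in H4 88-1, and 4.49 in 42MGBA and 4.28 in 42MGBA 53-1), not one shown to be absent.

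STAG2 is a subunit of cohesin, the ring complex that extrudes chromatin loops. Extrusion is commonly halted where the protein CTCF is bound, and loops tend to form between CTCF sites that point toward each other. Contacts of a gene's start with its own body or with distant elements are one way in which this folding can bear on transcription. SH3RF3 encodes a RING-type ubiquitin ligase with SH3 domains that serves as a scaffold for JNK signaling. LIMS1, also called PINCH1, encodes a LIM-domain adaptor that is in a complex with ILK and the parvins at integrin adhesions. EDAR encodes the receptor for ectodysplasin, a member of the TNF receptor superfamily that is best known from the development of hair, teeth and sweat glands.

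The contacts of the locus turned on a small number of places, and their reference sequence is shown so that the anchors can be recognized. SH3RF3 (ENSG00000172985.11_6, chr2:109745661-110262211, plus strand) has a single annotated start, and the lncRNA SH3RF3-AS1 (chr2:109743783-109745386, minus strand) starts beside it in the opposite direction. Both starts lie in the anchor chr2:109744496-109749480, and their contacts cannot be told apart. The 274 bases between them, chr2:109745387-109745660 on the plus strand with the 36 CG dinucleotides in capitals, are 75.9% G or C:
SH3RF3-AS1 to SH3RF3: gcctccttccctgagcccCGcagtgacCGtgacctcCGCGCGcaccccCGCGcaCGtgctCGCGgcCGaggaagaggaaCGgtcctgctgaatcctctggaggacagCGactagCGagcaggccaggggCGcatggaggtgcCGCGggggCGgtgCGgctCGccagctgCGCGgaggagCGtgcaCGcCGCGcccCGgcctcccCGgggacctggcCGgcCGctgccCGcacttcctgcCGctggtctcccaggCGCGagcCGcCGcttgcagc
LIMS1 (ENSG00000169756.17_15, chr2:109150127-109303702, plus strand) has 22 annotated starts, and its contacts were at the start at chr2:109196635 and its neighbours. The 250 bases before that start, chr2:109196385-109196634 on the plus strand, are 50% G or C and hold 3 CG dinucleotides, again in capitals:
LIMS1 upstream: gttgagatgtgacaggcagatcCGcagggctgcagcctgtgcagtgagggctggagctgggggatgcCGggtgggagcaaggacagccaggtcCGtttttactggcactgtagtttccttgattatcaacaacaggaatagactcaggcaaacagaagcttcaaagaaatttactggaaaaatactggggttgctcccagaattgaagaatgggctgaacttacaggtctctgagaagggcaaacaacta

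The anchors were also searched for CCANNAGNNGGC on either strand (GCCNNCTNNTGG on the other), a 12-base pattern that resembles the core of the CTCF motif. Of 122 anchors of the locus that were between 4000 and 6000 bases long, 19 (15.6%) held a match, beside 16.1% of all 127972 listed anchors of that length. A match describes the letters only. The following matches lay at the SH3RF3 start, at its 3′ end and at the partner of LIMS1, each shown with 15 bases on either side, 5′ to 3′ on the strand of the match, with the matched bases in capitals. The SH3RF3 start anchor holds a match at chr2:109744605-109744616 on the plus strand, upstream of the start. The anchor just past the 3′ end of SH3RF3, chr2:110265783-110270387, holds one at chr2:110268482-110268493 on the minus strand and another at chr2:110268317-110268328 on the plus strand. The partner anchor of LIMS1, chr2:108965587-108970564, holds one at chr2:108966650-108966661 on the plus strand.
SH3RF3 start anchor, plus: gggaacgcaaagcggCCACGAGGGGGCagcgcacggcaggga
SH3RF3 3′ anchor, minus: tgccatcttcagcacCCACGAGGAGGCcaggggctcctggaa
SH3RF3 3′ anchor, plus: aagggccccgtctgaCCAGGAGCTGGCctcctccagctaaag
LIMS1 partner anchor, plus: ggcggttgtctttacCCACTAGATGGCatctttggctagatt
No match of these letters was held by chr2:109739548-109744495, the anchor next to the SH3RF3 start that had the strongest contact of the locus, by the LIMS1 anchors chr2:109195594-109200389 and chr2:109200390-109204524, or by the second LIMS1 partner chr2:108970565-108975028.

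The number of contacts listed at the locus differed both within and between the isogenic pairs. H4 listed 92, H4 88-1 listed 188, 42MGBA listed 244 and 42MGBA 53-1 listed 289 of the 364. The corrected line was higher than its parent in both pairs, and both 42MGBA lines were higher than both H4 lines. Among the 100000 strongest contacts of each list, the locus had 35 in H4 and 49 in H4 88-1, and 79 in 42MGBA and 121 in 42MGBA 53-1, in the same order. Chromosome 2 as a whole also took a larger share of the 42MGBA lists, with 7.86% of the H4 list, 8.44% of the H4 88-1 list, 10.5% of the 42MGBA list and 11.0% of the 42MGBA 53-1 list, and its part in these counts was not tested. Per 10000 listed contacts of chromosome 2, the locus held 39.0 in H4 and 74.3 in H4 88-1, and 77.4 in 42MGBA and 87.7 in 42MGBA 53-1. Of the 364 contacts, 74 were in all 4 lists, 67 in all but H4, 60 in both 42MGBA lines only, 81 in 42MGBA 53-1 only, 32 in H4 88-1 only and 26 in 42MGBA only. No contact was listed in H4 only.

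**Figure D1:**
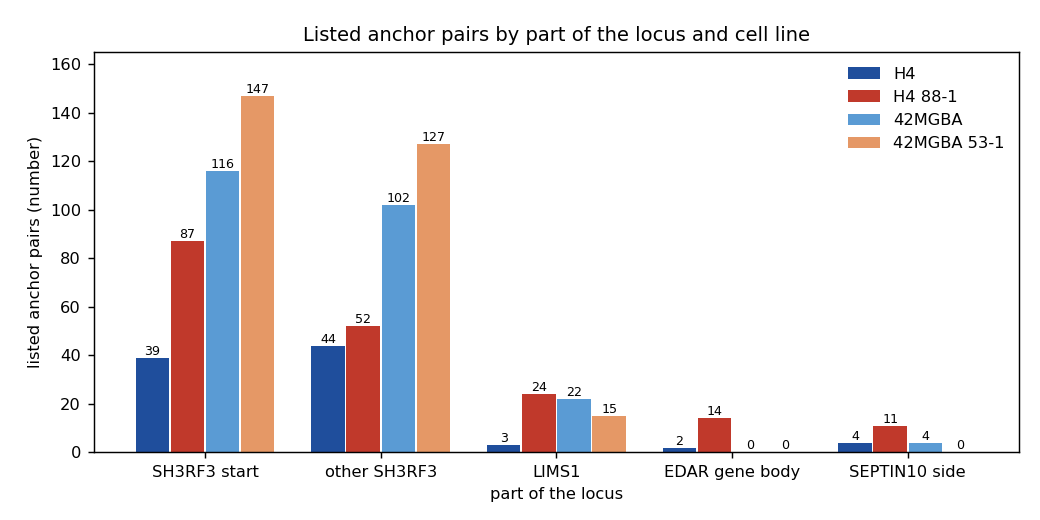
Number of listed anchor pairs in each part of the locus (horizontal axis) for the 4 cell lines (bar color), counted in lists of 300000; there are no replicates and no error bars. Contacts of the SH3RF3 start numbered 39, 87, 116 and 147 from H4 to 42MGBA 53-1, and the EDAR gene body was listed 14 times in H4 88-1 and not at all in the 42MGBA lines.

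SH3RF3 accounted for most of the locus. Contacts with an anchor at its start numbered 149 in any list, and a further 159 had an anchor elsewhere in the gene or just beyond its ends. At the start, 39 were listed in H4 and 87 in H4 88-1, and 116 in 42MGBA and 147 in 42MGBA 53-1. By this count SH3RF3 ranked 1226 of 7507 protein-coding genes with a listed contact in H4, 356 of 7380 in H4 88-1, 221 of 6937 in 42MGBA and 138 of 6835 in 42MGBA 53-1. It was thus among the genes with many contacts at the start in 3 of the cell lines, and less so in H4. The summed loop strength of these contacts was 271 in H4 and 541 in H4 88-1, and 773 in 42MGBA and 985 in 42MGBA 53-1.

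In every cell line the strongest contact of the locus spanned the whole of SH3RF3. It joined chr2:109739548-109744495, next to the start and overlapping SH3RF3-AS1, to chr2:110265783-110270387, which lies just past the 3′ end of the gene and overlaps no annotated gene. Its loop strength was 11.7 in H4 and 14.4 in H4 88-1, and 16.5 in 42MGBA and 14.1 in 42MGBA 53-1. Its rank among all 300000 contacts was 6075 in H4 and 2371 in H4 88-1, and 1283 in 42MGBA and 1889 in 42MGBA 53-1. The anchors are 526 kb apart on hg19, of which 142 kb (chr2:110109338-110251337) are unread bases in this build, so that the true distance is not given by these coordinates. The contact was 1.24-fold stronger in H4 88-1 than in H4 (log2 ratio 0.31, z-score 1.34) and weaker in 42MGBA 53-1 than in 42MGBA (log2 ratio -0.23, z-score -0.59). Here a z-score is the residual of a contact in a regression through the origin of the STAG2-corrected on the STAG2-mutant strength, over all contacts among the 100000 strongest of either line, in units of the SD of all residuals. A contact was called gained after correction when this z-score exceeded 1.96, lost when it was as far below 0, and common in between, and neither value for this contact passed.

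**Figure D2:**
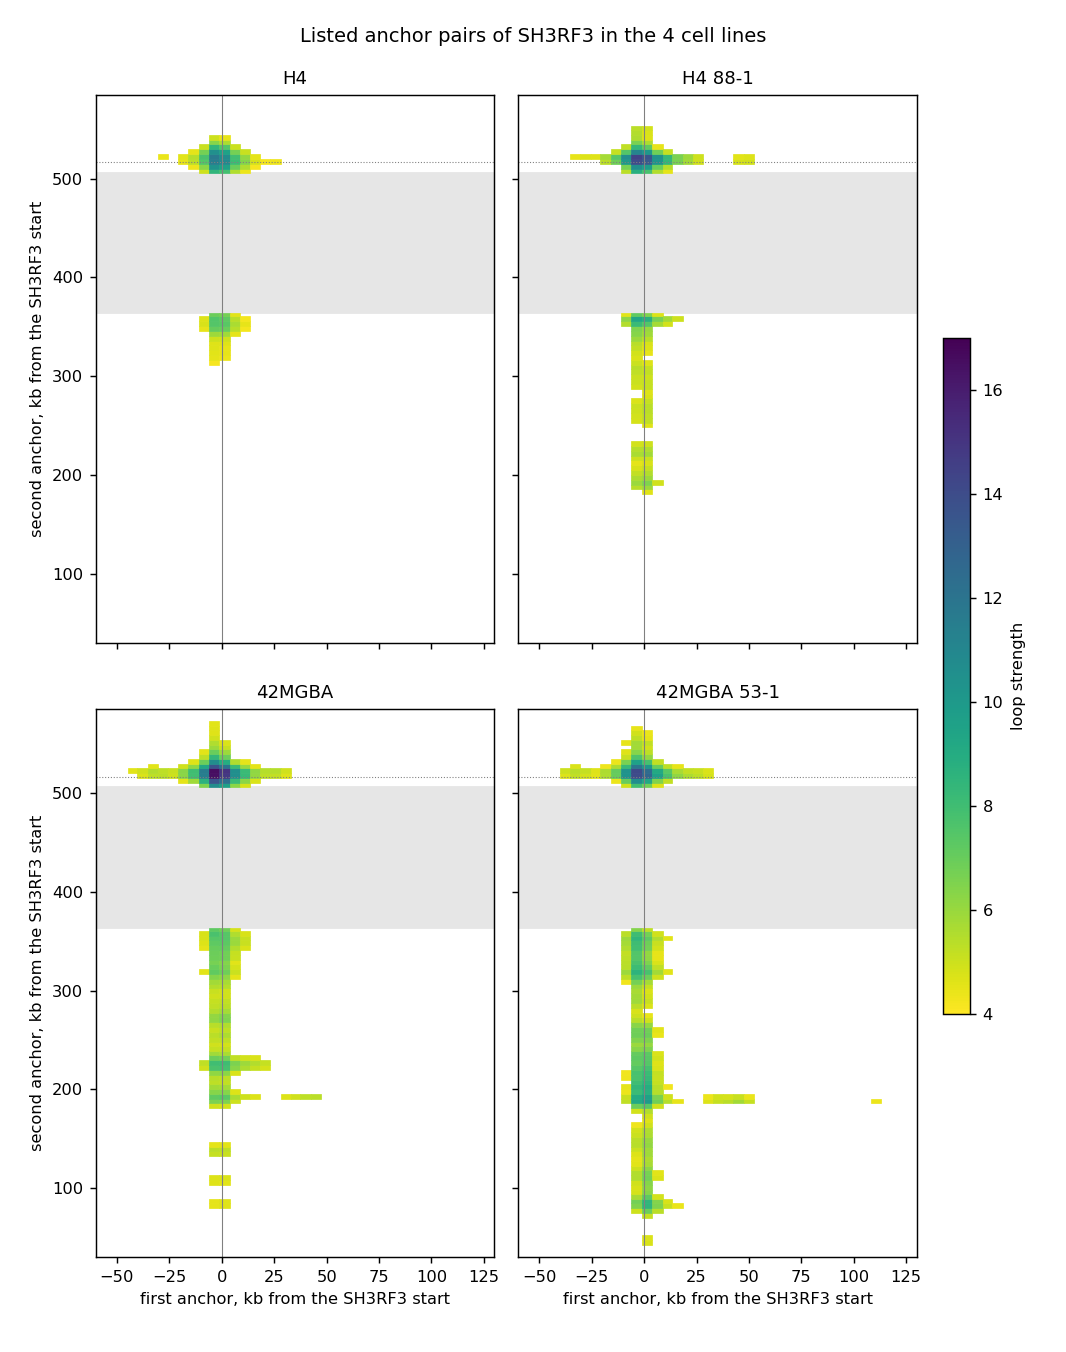
Contact maps of SH3RF3 in the 4 cell lines, with the position of the first anchor on the horizontal axis and of the second anchor on the vertical axis, both in kb from the SH3RF3 start; each block is 1 listed anchor pair, its color the loop strength, and white is unlisted or not drawn. The solid line marks the start, the dotted line the 3′ end and the gray band the unread bases; the block of contacts between the start and the 3′ end is present in all 4 maps (strongest 11.7, 14.4, 16.5 and 14.1), whereas contacts of the start under 300 kb are missing from H4 and reach closest to the start in 42MGBA 53-1. Contacts with a first anchor further into the gene, some of them under 300 kb in H4, are not drawn. Those with the long anchor of unread bases, or with an anchor outside the range of the axes, are left out as well.

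The cell lines differed more in the contacts between the SH3RF3 start and the interior of the gene. The nearest listed partner lay 314 kb from the start in H4 and 183 kb in H4 88-1, and 82.2 kb in 42MGBA and 44.9 kb in 42MGBA 53-1. Under 300 kb, H4 listed 0 contacts of the start, H4 88-1 listed 40, 42MGBA listed 64 and 42MGBA 53-1 listed 94. At 300 kb and beyond, the counts were closer to one another, with 39 in H4 and 47 in H4 88-1, and 52 in 42MGBA and 53 in 42MGBA 53-1. Contacts under 300 kb were therefore 0% of those of the SH3RF3 start in H4 and 46.0% in H4 88-1, and 55.2% in 42MGBA and 63.9% in 42MGBA 53-1. Over whole lists the share under 300 kb was in the same order in a narrower range, at 41.4% in H4 and 47.7% in H4 88-1, and 48.8% in 42MGBA and 58.3% in 42MGBA 53-1. On chromosome 2 the order was different, with 39.8% in H4 and 42.7% in 42MGBA below 46.7% in H4 88-1 and 51.2% in 42MGBA 53-1. The part of these shares in the difference at SH3RF3 was not tested.

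Within that interior, the 100 kb next to the start held 0 listed contacts in H4 and 0 in H4 88-1, and 4 in 42MGBA and 13 in 42MGBA 53-1. From 100 to 200 kb there were 0 in H4 and 7 in H4 88-1, and 18 in 42MGBA and 40 in 42MGBA 53-1. From 200 to 300 kb there were 0 in H4 and 33 in H4 88-1, and 42 in 42MGBA and 41 in 42MGBA 53-1. H4 thus joined the others only at 300 to 400 kb, where it listed 21 contacts beside 25 in H4 88-1, 26 in 42MGBA and 26 in 42MGBA 53-1. From 500 to 600 kb, around the 3′ end, the 4 lists held 16, 20, 24 and 25 in the same order.

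The profile of the anchor that contains the start had distinct summits, counted here where a value stood at least 1 unit of loop strength above its surroundings. All 4 cell lines had the summit at the 3′ end, 518 to 522 kb from the start, at 10.9 in H4 and 13.6 in H4 88-1, and 15.05 in 42MGBA and 12.8 in 42MGBA 53-1, and in H4 it was the only one by this rule. H4 88-1 and 42MGBA both had a summit at chr2:109936141-109941151 in intron 1, 193 kb from the start, where the loop strength was unlisted in H4 and 6.52 in H4 88-1, and 7.33 in 42MGBA and 9.56 in 42MGBA 53-1. In 42MGBA 53-1 the summit lay in the adjoining anchor, chr2:109931396-109936140, and was higher, at 9.97, beside 6.53 in 42MGBA and 5.93 in H4 88-1. Other interior summits were seen in a single cell line or in adjoining anchors. H4 88-1 had one of 8.80 at chr2:110101313-110106220, 358 kb from the start, where H4 had 7.22, 42MGBA 7.43 and 42MGBA 53-1 6.75. In the adjoining anchor, chr2:110096357-110101312, 42MGBA 53-1 had a summit of 7.24. H4 rose to 7.39 there, less than 1 unit above its 6.48 at the anchor of unread bases. 42MGBA had its highest interior summit, 8.05, at chr2:109970294-109975277, 227 kb from the start, and 42MGBA 53-1, at 7.42 there, had no summit. 42MGBA 53-1 had a further summit of 8.48 at chr2:109825386-109830388, 82.2 kb from the start, where 42MGBA had 4.65 and both H4 lines were unlisted.

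**Figure D3:**
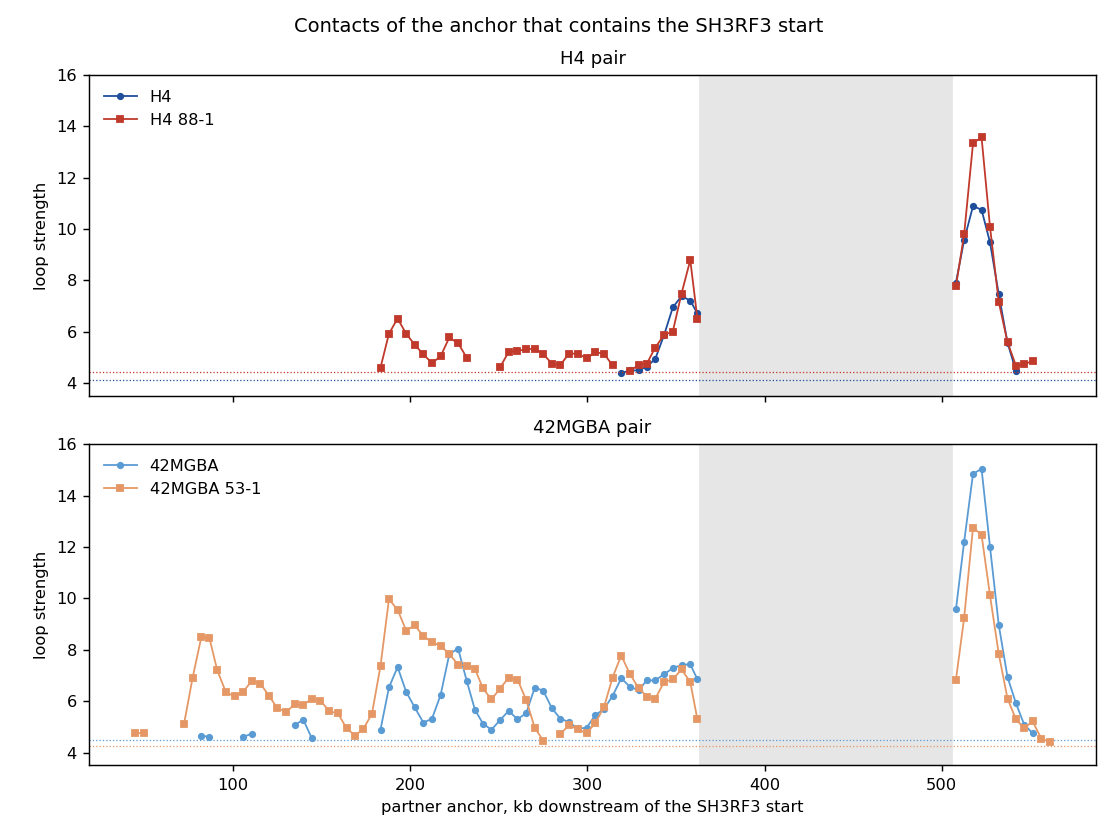
Loop strength (vertical axis) of the contacts between the anchor that contains the SH3RF3 start and each partner anchor, by the partner's distance downstream of the start in kb (horizontal axis), for the H4 pair (top) and the 42MGBA pair (bottom). Points are listed contacts, dotted lines the lowest strength in each list and the gray band the unread bases; 42MGBA 53-1 lies above 42MGBA at 82.2 kb (8.48 against 4.65) and below it at 522 kb (12.5 against 15.05), and H4 has no point under 300 kb.

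Other anchors near the SH3RF3 start shared these partners. The intronic anchor chr2:109931396-109936140 was used by 0 listed contacts in H4 and 2 in H4 88-1, and 3 in 42MGBA and 12 in 42MGBA 53-1. In contrast, chr2:109970294-109975277 was used by 0 in H4 and 2 in H4 88-1, and 7 in 42MGBA and 3 in 42MGBA 53-1. The neighbouring anchor chr2:109936141-109941151, which holds a match to CCANNAGNNGGC on the plus strand, was used by 0 in H4 and 3 in H4 88-1, and 9 in 42MGBA and 10 in 42MGBA 53-1. 42MGBA and 42MGBA 53-1 thus differed in opposite directions at the first and second of these intronic anchors, and were close at the third.

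The anchor that contains the start and the anchor immediately upstream of it were not interchangeable. For partners at 300 kb and beyond, the upstream anchor had the higher loop strength in most cases. The start anchor was the stronger for 1 of 19 such partners in H4, 0 of 23 in H4 88-1, 2 of 24 in 42MGBA and 0 of 26 in 42MGBA 53-1. For partners under 300 kb it was the stronger for 17 of 18 in H4 88-1, 17 of 32 in 42MGBA and 37 of 44 in 42MGBA 53-1. The median difference in loop strength, start anchor minus upstream anchor, was 0.58 for the near and -1.14 for the far partners in 42MGBA 53-1, 0.30 and -0.64 in H4 88-1, and 0.04 and -0.40 in 42MGBA. In every cell line the far contacts were thus mostly stronger at the anchor upstream of the start. The near contacts were mostly stronger at the start itself in both STAG2-corrected lines and about evenly divided in 42MGBA. H4 had no near contacts to compare. Only partners listed with both anchors were counted. Neighbouring anchors share signal after enhancement, and these partners are not independent of one another.

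The comparison of STAG2-corrected with STAG2-mutant cells asks which contacts differed between a parent and its derivative. In the H4 pair, 51 contacts of the locus were among the merged 100000 strongest, and 3 were gained and 0 lost, beside a background of 1.94% gained and 2.17% lost over all 129476 merged contacts (4.11% in either direction). In the 42MGBA pair, 132 were merged, and 6 were gained and 0 lost, beside 1.61% gained and 2.45% lost of 131211 (4.06% in either direction). All 3 gained in the H4 pair were at LIMS1 and all 6 gained in the 42MGBA pair were at the SH3RF3 start. They are neighbours of one another, and joining contacts whose anchors both lay within 10 kb, a step chosen after the data were seen, left 1 gained contact in the H4 and 2 in the 42MGBA pair. When both anchors had to lie in the stretch, the LIMS1 contacts dropped out and the H4 pair had 0 gained.

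**Figure D4:**
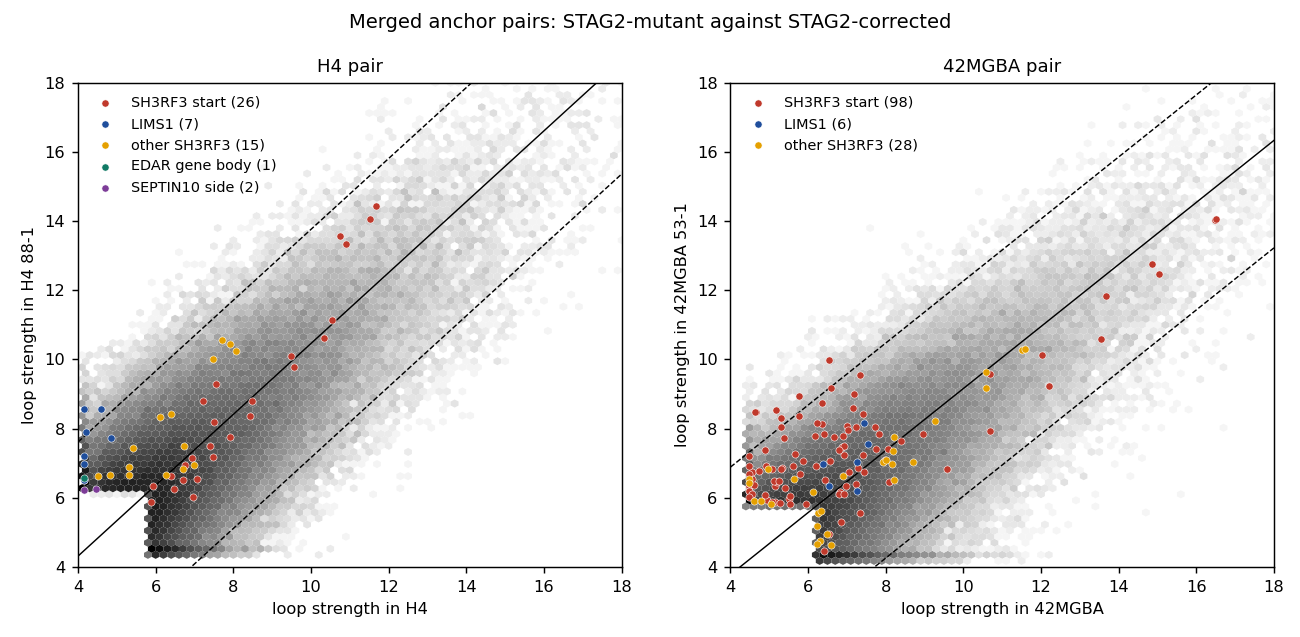
Loop strength in STAG2-mutant (horizontal axis) and STAG2-corrected cells (vertical axis) for the merged contacts of the H4 pair (left) and the 42MGBA pair (right); gray hexagons are all merged contacts (darker is more, log scale), colored points those of the locus, the solid line the regression and the dashed lines the cutoff. The 3 points above the upper dashed line on the left are LIMS1 contacts, the 6 on the right are contacts of the SH3RF3 start, and no colored point lies below a lower dashed line.

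At the SH3RF3 start, the H4 pair had 26 merged contacts, of which 0 were gained and 0 lost. Their z-scores ran from -0.79 to 1.39, and the median log2 ratio was 0.05, beside 0.07 over all merged contacts (-0.03 relative to it) and 0.14 over those of chromosome 2. This median depended on how many contacts were merged, and was 0.30 (n = 57) with 200000 and 0.23 (n = 88) with 300000 of each list. The largest z-score belonged to the contact of the start anchor with chr2:110265783-110270387, at 10.8 in H4 and 13.6 in H4 88-1. The contacts under 300 kb that were listed in H4 88-1 alone of this pair were mostly too weak to enter the merged set, with 1 merged, so that this comparison says little of them. With an intercept in the regression 3 contacts of the start were called gained in the H4 pair, and with all 300000 contacts merged 1 was. The authors do not state the form of their regression, and the calls here are not theirs. They list SH3RF3 among the STAG2-regulated pairings of a gene with a loop that both systems shared.

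In the 42MGBA pair the SH3RF3 start had 98 merged contacts, of which 6 were gained and 0 lost. The median log2 ratio was 0.20, beside -0.11 over all merged contacts and -0.08 over those of chromosome 2, and 73 of the 98 had a positive z-score, beside 51.3% of all. Of the 98, 7 were unlisted in 42MGBA and were given the lowest strength in its list. Only 53 of the 98 were among the 100000 strongest of 42MGBA, and 94 were among those of 42MGBA 53-1, whereas both lists gave 100000 to the background. Many of the 98, and most of the 6 gained, were thus merged through 42MGBA 53-1 alone. This selection favors a positive ratio, and its part in the median and in the z-scores was not tested. The z-scores ran from -1.22 to 2.61. All 6 gained contacts joined the start anchor, chr2:109744496-109749480, to intron 1 of the gene, and they formed a near group and a far group. The count was 10 when log2 ratios were ranked, 16 of 138 with 200000 merged and 25 of 149 with 300000 merged, where 2 were lost.

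The near group had partners at chr2:109825386-109830388 and chr2:109830389-109834456. The loop strength of the first was 4.65 in 42MGBA and 8.48 in 42MGBA 53-1 (1.82-fold, z-score 2.60), and that of the second was 4.62 and 8.47 (1.83-fold, z-score 2.61). Neither was listed in H4 or H4 88-1. The far group had 4 partners between chr2:109931396-109936140 and chr2:109955520-109960504. The strongest of them went from 6.53 in 42MGBA to 9.97 in 42MGBA 53-1 (1.53-fold, z-score 2.47), and the others had folds of 1.56 (5.76 to 8.96), 1.65 (5.17 to 8.54) and 1.56 (5.31 to 8.30). None of the 4 was listed in H4, and H4 88-1 listed them at 5.93, 5.50, 5.13 and 4.79, each below its value in 42MGBA. The weakest of the 6 had a z-score of 2.11, and the highest of the locus not called in this pair was 1.95, for the upstream anchor with a partner of the same far group.

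The direction at the SH3RF3 start in the 42MGBA pair changed along the gene. The median log2 ratio was 0.62 for the 7 merged contacts within 100 kb of the start, 0.46 for 17 at 100 to 200 kb, 0.30 for 31 at 200 to 300 kb and 0.12 for 24 at 300 to 400 kb. It was -0.36 for 2 contacts at 400 to 500 kb, both with the anchor of unread bases, and -0.22 for 17 at 500 to 600 kb. The log2 ratio was above 0 for all 7 and all 17 of the contacts within 200 kb, and the lowest among them was 0.15. All of these 7, and most of the 17, were merged through 42MGBA 53-1 alone. Contacts merged in this way tend to be stronger in 42MGBA 53-1 by selection, so that the sign of their ratios is no independent result. Contacts of the same sizes over the genome also declined with size in this pair, with medians of 0.13, -0.0028, -0.07, -0.14, -0.19 and -0.26 for the same 6 ranges. The SH3RF3 medians lay above that background at every distance under 400 kb and near it around the 3′ end. The part of the selection through 42MGBA 53-1 in this difference was not tested. In the H4 pair the medians at SH3RF3 were 0.03 for 10 contacts at 300 to 400 kb and 0.06 for 13 at 500 to 600 kb, beside 0.07 and 0.01 over the genome.

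The remaining contacts of SH3RF3 had no anchor at the start, and joined other anchors upstream of the gene or in it to partners further along the gene or just past its 3′ end. Of these 159, 44 were listed in H4 and 52 in H4 88-1, and 102 in 42MGBA and 127 in 42MGBA 53-1. The strongest in 3 of the cell lines joined chr2:109734616-109739547 to the 3′ anchor chr2:110265783-110270387, at 7.71 in H4 and 10.6 in H4 88-1, and 11.6 in 42MGBA and 10.3 in 42MGBA 53-1. In H4 the strongest was from chr2:109749481-109754472 to chr2:110260768-110265782, at 8.06. Of the 15 merged in the H4 pair 14 had a log2 ratio above 0 and the median was 0.40, and of the 28 merged in the 42MGBA pair 8 had a log2 ratio above 0 and the median was -0.17. None was called in either pair.

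LIMS1 had 27 contacts in any list, all of them to chromatin upstream of the gene, outside the stretch. Of these, 24 had an anchor at an annotated start, and 3 were listed in H4 and 21 in H4 88-1, and 22 in 42MGBA and 15 in 42MGBA 53-1. H4 therefore stood apart from the other 3 cell lines. The contacts joined anchors between chr2:109190703-109195593 and chr2:109204525-109209319 with partners 176 to 244 kb away, among which chr2:108965587-108970564 had the strongest contacts. That partner anchor overlaps an exon of the lncRNA SULT1C5P, and no contact joined the starts of any pair of genes in the stretch.

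In the H4 pair 7 contacts of the LIMS1 start were merged, and 3 were gained and 0 lost, with a median log2 ratio of 0.80 and all 7 above 0.65. Of the 7, 4 were unlisted in H4 and were given the lowest strength in its list, so that their ratios are lower bounds. All 7 were merged through H4 88-1 alone, as none was among the 100000 strongest of H4, and this selection favors a high median. In the order of genes by this median, LIMS1 was at place 26 of 4765. That order also holds genes with a single merged contact, and the place cannot be read apart from the selection. The strongest, chr2:108965587-108970564 with chr2:109195594-109200389, was unlisted in H4 and 8.58 in H4 88-1, and 7.44 in 42MGBA and 8.15 in 42MGBA 53-1. Against the lowest strength in the H4 list it was at least 2.07-fold higher in H4 88-1 (z-score 2.44). The contact of the same partner with chr2:109200390-109204524 was 4.20 in H4 and 7.91 in H4 88-1, and 7.54 in 42MGBA and 7.56 in 42MGBA 53-1, 1.88-fold higher in H4 88-1 than in H4 (z-score 2.02). The contact of chr2:108970565-108975028 with chr2:109195594-109200389 was 4.58 in H4 and 8.57 in H4 88-1, and 7.27 in 42MGBA and 7.04 in 42MGBA 53-1, 1.87-fold higher in H4 88-1 than in H4 (z-score 2.18). In all 3 gained contacts H4 was the low value, and the other 3 cell lines lay between 7.04 and 8.58.

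The other 4 merged contacts of LIMS1 in this pair had z-scores between 1.22 and 1.62, beside 2.02 for the lowest gained. In the 42MGBA pair 6 contacts of the LIMS1 start were merged, and 0 were gained and 0 lost, with log2 ratios from -0.23 to 0.13 and a median of -0.02, which was 0.09 relative to the median of all merged contacts. The count in the H4 pair depended on the procedure. It was 1 with an intercept, 6 with all 300000 contacts merged and 0 when only the first base of the gene record, which is a different start, counted as the start. At that base no contact was merged.

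EDAR (ENSG00000135960.10_9, chr2:109510927-109605828, minus strand) had no listed contact at its start in any cell line. Its gene body was in 14 contacts, 700.1 to 734 kb long, all with anchors at the 3′ end of SH3RF3 between chr2:110260768-110265782 and chr2:110270388-110275290. H4 listed 2 of them and H4 88-1 all 14, and neither 42MGBA nor 42MGBA 53-1 listed any. The strongest, chr2:109540958-109545893 with chr2:110265783-110270387, was 4.16 in H4 and 6.58 in H4 88-1, and its first anchor overlaps an EDAR exon. It was the only one strong enough to be merged, with a log2 ratio of 0.66 and a z-score of 1.25, and was not called. The 3′ anchor of SH3RF3 was thus joined both to the SH3RF3 start in all 4 cell lines and, more weakly, to the EDAR gene body in the H4 lines.

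Apart from the contacts of the SH3RF3 start, the stretch past SH3RF3 had 15 contacts with anchors near or in SEPTIN10, which encodes a septin. There were 4 in H4 and 11 in H4 88-1, and 4 in 42MGBA and 0 in 42MGBA 53-1. The 4 in H4 were all listed in H4 88-1, and the 4 in 42MGBA joined the same partners to anchors nearer SH3RF3. The strongest, chr2:110299359-110304350 over an exon at the 3′ end of SEPTIN10 with chr2:110488331-110493122, was 4.47 in H4 and 6.25 in H4 88-1 (z-score 0.86). Weak contacts of the SH3RF3 start, counted above, also reached SEPTIN10 in the 42MGBA lines. That of chr2:109739548-109744495 with chr2:110299359-110304350 was 4.92 in 42MGBA and 5.28 in 42MGBA 53-1. No contact was listed at a start of SEPTIN10, SOWAHC, the nuclear pore gene RANBP2, the golgin gene GCC2 or CCDC138, whereas SH3RF3, SH3RF3-AS1 and LIMS1 had them.

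In both isogenic pairs the median log2 ratio of the locus lay above that of all merged contacts, by 0.22 in the H4 and 0.23 in the 42MGBA pair. The corrected list gave more of the merged contacts of the locus, with 49 from H4 88-1 and 35 from H4, and 121 from 42MGBA 53-1 and 79 from 42MGBA. Over the genome both lists of a pair gave 100000. Contacts merged through 1 line tend to be stronger in it, and the part of this imbalance in the medians was not tested. It was 0.29 in the H4 pair, with 43 of 51 above 0 (58.1% of all merged contacts were), and 0.12 in the 42MGBA pair, with 78 of 132 above 0 (38.7% of all were). In the H4 pair 7 of the 51 contacts were those of LIMS1 and 2 were on the SEPTIN10 side, all with an anchor outside the stretch. The median was 0.11 with both anchors in the stretch and 0.16 for contacts listed in both cell lines, beside 0.14 over chromosome 2. A positive z-score was found for 34 of 51 in the H4 pair, beside 50% of all, and for 88 of 132 in the 42MGBA pair. Contacts of the locus under 250 kb had a median of 0.71 in the H4 pair (n = 10) and 0.39 in the 42MGBA pair (n = 57), beside 0.19 and 0.0024 over all contacts of that size, and of these 6 and 9 were unlisted in the STAG2-mutant line and entered at its lowest strength. Those of at least 500 kb had a median of 0.29 in the H4 pair (n = 28) and -0.19 in the 42MGBA pair (n = 36), beside -0.07 and -0.27. The 7 contacts of LIMS1 among those under 250 kb were merged through H4 88-1 alone.

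Of the locus, 45 contacts were merged in both pairs, and 0 were called in the same direction in both. The log2 ratio was above 0 in both pairs for 8, below 0 in both for 7, above 0 in the H4 pair and below 0 in the 42MGBA pair for 29, and the reverse for 1. Relative to the regression of each pair, the z-score was above 0 in both for 11. Over all merged contacts the median log2 ratio was itself above 0 in the H4 pair and below 0 in the 42MGBA pair.

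Genes that work with SH3RF3, LIMS1 and EDAR were looked at in the same way. Of 17 genes of the SH3RF family and the JNK cascade, 5 had merged contacts at a start in the H4 and 6 in the 42MGBA pair. None of them had a gained contact in either pair, and 1 had lost contacts, which was JUN, the transcription factor that JNK phosphorylates, with 18 of 94 lost in the 42MGBA pair and a median log2 ratio of -0.56, where 7.14% of all genes with merged contacts had a lost one. SH3RF2, the paralog with merged contacts, had 4 in the H4 pair (median log2 ratio -0.03) and 24 in the 42MGBA pair (median -0.14), none called, and SH3RF1 had none listed.

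Of 14 genes of the LIMS1 partners at integrin adhesions, 8 had merged contacts in each pair. In the H4 pair 2 genes had gained contacts, beside 9.55% of all genes with merged contacts, and they were PARVB, a parvin, with 9 of 40 gained (median log2 ratio 0.57) and PXN, which encodes paxillin, with 2 of 12 (median 0.72). VCL, which encodes vinculin, had 1 of 8 lost in that pair (median -0.47), and was the 1 gene of the 8 with a lost contact, beside 5.86% of all genes. In the 42MGBA pair 2 of 58 contacts were gained at VCL (median 0.11) and 2 of 16 were lost at PARVB (median -0.65). Of 15 genes of the EDAR pathway, 6 had merged contacts in each pair, and a single gene had called contacts, NFKBIA, an inhibitor of NF-kB, with 6 of 46 gained in the 42MGBA pair and a median of -0.06. The background for genes with a gained contact was 6.37% in that pair.

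Among 1384 protein-coding genes with at least 10 merged contacts in each pair, 849 had a median log2 ratio at or above that of SH3RF3 in the H4 pair, 131 in the 42MGBA pair and 87 in both, with 100000 of each list merged. The 5 genes elsewhere in the genome with the most similar medians, by the distance between the 2 median log2 ratios, were VPS35L (0.06 in the H4 and 0.20 in the 42MGBA pair), EIF2AK4 (0.02 and 0.19), EPG5 (0.04 and 0.23), CORO1C (0.01 and 0.19) and NANOS3 (0.08 and 0.17). This likeness rests on 2 values for each gene.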

How the data were processed

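Hi-C was performed on 2 libraries of each cell line with the Arima Hi-C+ kit. The authors aligned the reads with Bowtie to hg19, as named in the submitters' processing notes, assigned them to pairs of anchors of about 5 kb, corrected biases with HiCorr and enhanced the matrices with DeepLoop. The deposited signal is the resulting loop strength of 300000 anchor pairs per cell line, the strongest ones, with both libraries pooled and without counts, so that neither counting error nor replicate spread can be computed. Enhancement spreads signal over neighbouring anchors, which are not independent.

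The 100000 strongest pairs of both lines of an isogenic pair were merged, and an unlisted pair was given the lowest strength in its list. A pair merged through a single line tends to be stronger in that line by this selection. STAG2-corrected strength was regressed on STAG2-mutant strength through the origin over all merged pairs. The 2-sided 0.05 cutoff on the z-score of the residual ranks contacts and is no test against replicates. Sizes are distances between anchor midpoints. Starts were taken from GENCODE release 44 on hg19, within 3 kb of an anchor. The named genes are those with a start in the stretch, the pathway lists, and the 5 most similar genes. The named contacts are, for each gene, the strongest and those with the extreme z-scores, and every called contact. The summits, the start anchor against its neighbour, and the values of single intronic anchors were chosen after their values were seen. The members and lists were chosen with earlier results of these data known. The code was tested on simulated data. Alternatives changed the regression, scale, number merged, treatment of unlisted pairs, centring, start distance, and anchors kept. The 12 RNA-seq samples were not analysed here. The versions were Python 3.11.15, scipy 1.17.1, pandas 2.3.3, numpy 2.4.6 and, for figures, matplotlib 3.10.9.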

Additional observations from a re-analysis of the deposited data

Results flagged for a closer look

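Several parts of the locus had stronger contacts after correction in the H4 pair and weaker ones in the 42MGBA pair, by the median of the log2 ratio (STAG2-corrected over STAG2-mutant loop strength). With 1 pooled value per cell line this contrast between the isogenic systems was not tested. At the LIMS1 start the H4 pair had a median of 0.7961, whereas the 42MGBA pair had one of -0.0206, which is 0.086 relative to its merged contacts as a whole. Contacts of SH3RF3 with no anchor at the start had a median of 0.3969 in H4 cells, whereas in 42MGBA cells it was -0.169. Contacts of the SH3RF3 start with anchors 500 to 600 kb away had a median of 0.0562 in H4 cells, whereas in 42MGBA cells it was -0.2187. The medians of all merged contacts, 0.07 for H4 cells and -0.11 for 42MGBA cells, were of the same signs, and those of the genome at 500 to 600 kb were 0.01 and -0.26.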

How the results depend on the processing

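Of 218 values over 26 results under the alternatives, 183 kept their direction and roughly their size, 32 moved and 3 changed sign. The rule for size was loose. The 6 gained contacts of the SH3RF3 start in the 42MGBA pair were 9 with contacts listed in both cell lines only, and this was counted as kept. The 183 include all counts at the EDAR start, which had no merged contact under any setting and could not change. They also include LIMS1 counts with the gene record's first base as the start, where no contact was merged. Of the gained contacts, the 3 of the LIMS1 start in the H4 pair became 1 with an intercept in the regression, 6 with all 300000 merged and 0 with the gene record's first base as the start. The 6 of the SH3RF3 start in the 42MGBA pair became 10 when log2 ratios were ranked, 16 with 200000 merged and 25 with 300000. The 0 of the SH3RF3 start in the H4 pair became 3 with an intercept and 1 with 300000. The 6 of the locus in the 42MGBA pair became 10, 16 and 28 in the same order and 2 with neighbours joined, and the 3 in the H4 pair became 8 with 300000, 0 with both anchors in the stretch and 1 with neighbours joined. Lost contacts were 2 in the 42MGBA pair, for the SH3RF3 start and so for the locus, with 300000 merged. Counts among the 100000 strongest were 35 in H4 and 49 in H4 88-1, and 79 in 42MGBA and 121 in 42MGBA 53-1.

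The median log2 ratio of LIMS1 in the 42MGBA pair became -0.065 with 200000 merged, -0.10 with 300000, 0.086 centred on the median of all contacts and 0.12 with only anchors that overlap a start. That of LIMS1 in the H4 pair became 0.48 with 300000. That of SH3RF3 in the H4 pair became 0.30 with 200000, 0.23 with 300000, -0.026 centred, 0.019 with only overlapping anchors and 0.089 within 10 kb of the start. That of SH3RF3 in the 42MGBA pair became 0.31 centred. That of the locus became 0.23 centred in the 42MGBA pair, and 0.16 with contacts listed in both cell lines and 0.11 with both anchors in the stretch in the H4 pair. The causes were not tested. No paired analysis was possible because the replicates of a cell line were pooled into 1 list.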

Other observations

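The anchor chr2:110109336-110251520, which is nearly all unread bases in hg19 and much longer than the others, was used by 3 listed contacts of the locus in H4 and 2 in H4 88-1, and 4 in 42MGBA and 2 in 42MGBA 53-1.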
